A study of Mus musculus with 144 samples.

Results

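The genes described here encode 3 families of conjugating enzymes of mouse liver, the glutathione S-transferases (GST), the UDP-glucuronosyltransferases (UGT) and the sulfotransferases (SULT). They were chosen by symbol and not by their measured values. Every symbol of the gene count table that began with Gst, with Ugt1, Ugt2 or Ugt3, or with Sult in the form of an enzyme class name was taken, and 7 pseudogene symbols ending in -ps were left out. Of the 51912 symbols in the table, 64 matched, namely 22 GST, 21 UGT and 21 SULT symbols.

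RNA came from the livers of male C57BL/6J mice that were kept in 12 h of light and 12 h of darkness and could eat and drink at all times. Time is given as zeitgeber time (ZT), in hours after lights on, and livers were taken at ZT2, ZT6, ZT10, ZT14, ZT18 and ZT22. Wild-type mice gave 3 kinds of RNA: total RNA of the whole liver, RNA of nuclei pelleted through a sucrose cushion, and polysomal RNA, which is RNA carrying several ribosomes, from sucrose gradients run after cycloheximide. Bmal1-/- mice, which lack the clock protein BMAL1, gave total RNA, and each of the 4 series held 6 replicates at each of the 6 times. The labels give neither the ages of the mice nor the exons removed in Bmal1-/-, and they do not say which replicates came from the same animal. Each library was made from the 3′ ends of polyadenylated RNA, so that a transcript gives about 1 sequenced end whatever its length, and levels are given as counts per 1000000 counts in genes (CPM), which were not divided by transcript length.

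Conjugation makes lipophilic compounds more water soluble. GST enzymes join glutathione to electrophiles, UGT enzymes of the endoplasmic reticulum transfer glucuronic acid from UDP-glucuronic acid to bilirubin, steroids and drugs, and cytosolic SULT enzymes transfer sulfonate from 3′-phosphoadenosine 5′-phosphosulfate (PAPS) to phenols, steroids and bile acids. The liver holds high levels of all 3 families, many of their genes are known targets of the receptors CAR, PXR and PPAR alpha and of the stress factor NRF2, and several differ between the sexes in mice. BMAL1 with CLOCK activates transcription at E-boxes, and the clock output factors DBP, TEF and HLF are known regulators of detoxification genes.

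Libraries held 5316601 to 9831142 counts in genes for wild-type total RNA, 1662449 to 6620128 for nuclei, 2578048 to 13068044 for polysomes and 4379549 to 14281894 for Bmal1-/- liver. The noncoding RNA Xist, which is made from the inactive X chromosome of females, exceeded 100 CPM in 1 library of each series, at ZT22 in wild-type total and nuclear replicate 5, polysomal replicate 1 and Bmal1-/- replicate 6, although the labels give male mice throughout. In the first 3 of these Cyp4a12a, a male-predominant P450, was at 8.75, 8.71 and 1.76 CPM, against at least 489 CPM in wild-type total libraries that did not stand apart, and the female-predominant Sult2a2 and Sult3a1 were detected there, whereas the Bmal1-/- library had Cyp4a12a at 438 CPM and Sult2a2 at 0. The ZT18 libraries of the same wild-type, nuclear and polysomal numbers had the next lowest Cyp4a12a, at 88.5, 91.1 and 101.2 CPM. Detection of Sult2a2 or Sult3a1 was not particular to the libraries with Xist. Sult3a1 had counts in 10 wild-type total, 3 nuclear, 8 polysomal and 15 Bmal1-/- libraries, and Sult2a2 in 4, 4, 2 and 3. In Bmal1-/- RNA 3 other libraries had Cyp4a12a below 10 CPM, replicate 5 at ZT18 and replicate 6 at ZT2 and ZT18. Wild-type replicate 4 at ZT2 and at ZT14 also lay far from the other 5 replicates of its time for many genes. Level changes were recomputed without the libraries with Xist, without wild-type replicate 4 at ZT2 and ZT14, without the wild-type, nuclear and polysomal pairs at ZT18 and ZT22 and, for Bmal1-/-, without those low in Cyp4a12a, and so were rhythms within a series for its own libraries. Site usage, and the nuclear and polysomal differences in rhythm, were recomputed only without the libraries with Xist. Nothing in the labels says that replicates are separate animals, so p-values measure the spread between these samples.

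Not every symbol was a separate measurement. The 9 Ugt1a genes share their last exons, where this assay reads, and their counts were the same for 98.4% to 100% of reads; they are treated below as 1 measurement, Ugt1a, read from the Ugt1a2 entry. The entries Ugt2a1 and Ugt2a1.1 were identical. That left 55 separate members, of which 22 were GST, 12 UGT and 21 SULT. A member was tested where it averaged 10 or more counts over the libraries compared, which 40 members did in at least 1 comparison and 15 in none. The untested members were 2 GST genes (Gstt4 and Gsto2), Ugt2a1, and 12 SULT genes, namely Sult1c1, Sult2a1, Sult2a3, Sult2a4, Sult2a5, Sult2a6, Sult2b1, Sult3a1, Sult3a2, Sult4a1, Sult6b1 and Sult6b2. Sult1c1 had no count in any library. The highest single value among the untested members was 43.0 CPM for Sult3a1, in polysomal replicate 1 at ZT22, one of the libraries with Xist.

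A few members carried most of each family in wild-type total RNA. GST genes summed to 4001 ± 547 CPM (SD, n = 36 libraries), of which Gstm1, a mu class enzyme, gave 32.6% and Gsta3, an alpha class enzyme known for detoxifying aflatoxin epoxide in mice, gave 30.9%. UGT genes summed to 3362 ± 562 CPM, with 35.7% from Ugt1a, the gene complex that includes the bilirubin enzyme, and 20.1% from Ugt2b1. SULT genes summed to 461 ± 120 CPM, with 43.8% from Sult2a8, of the hydroxysteroid and bile acid class, and 21.7% from Sult1a1, a phenol sulfotransferase. The family sums are sums over genes of 3′ end counts, in which genes do not weigh by length.

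Bmal1-/- against wild type. The families did not move as one in Bmal1-/- liver: alpha and theta class GST genes and Ugt1a were lower than in wild type, 6 of the 7 mu class GST genes were higher, and 5 SULT genes were higher and 1 lower. Of the 39 members tested, 28 changed, 14 up and 14 down, by edgeR's quasi-likelihood test on the mean difference over the 6 times (adjusted p under 0.05 over all genes). Over all 12082 genes tested 44.1% changed, 22.4% up and 21.7% down. The members' median log2 change was -0.07, beside 0.01 over all genes. By family, 18 of 20 tested GST genes changed (7 up, 11 down; median log2 change -0.32), 4 of 11 UGT genes (2 up, 2 down; median 0.03) and 6 of 8 SULT genes (5 up, 1 down; median 0.49). Of these, Sult1e1, Gsta1 and Gstp2 averaged under 10 counts in 1 genotype and were tested because of their level in the other, so that their direction is a description only. Among the 36 members that averaged 10 or more in both genotypes, 25 changed, 13 up and 12 down (median -0.02), with 16 of 18 GST genes (7 up, 9 down; median -0.17) and 5 of 7 SULT genes (4 up, 1 down; median 0.36). In these whole-liver samples a change in the number of cells of a type and a change in RNA per cell cannot be told apart.

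**Figure D1:**
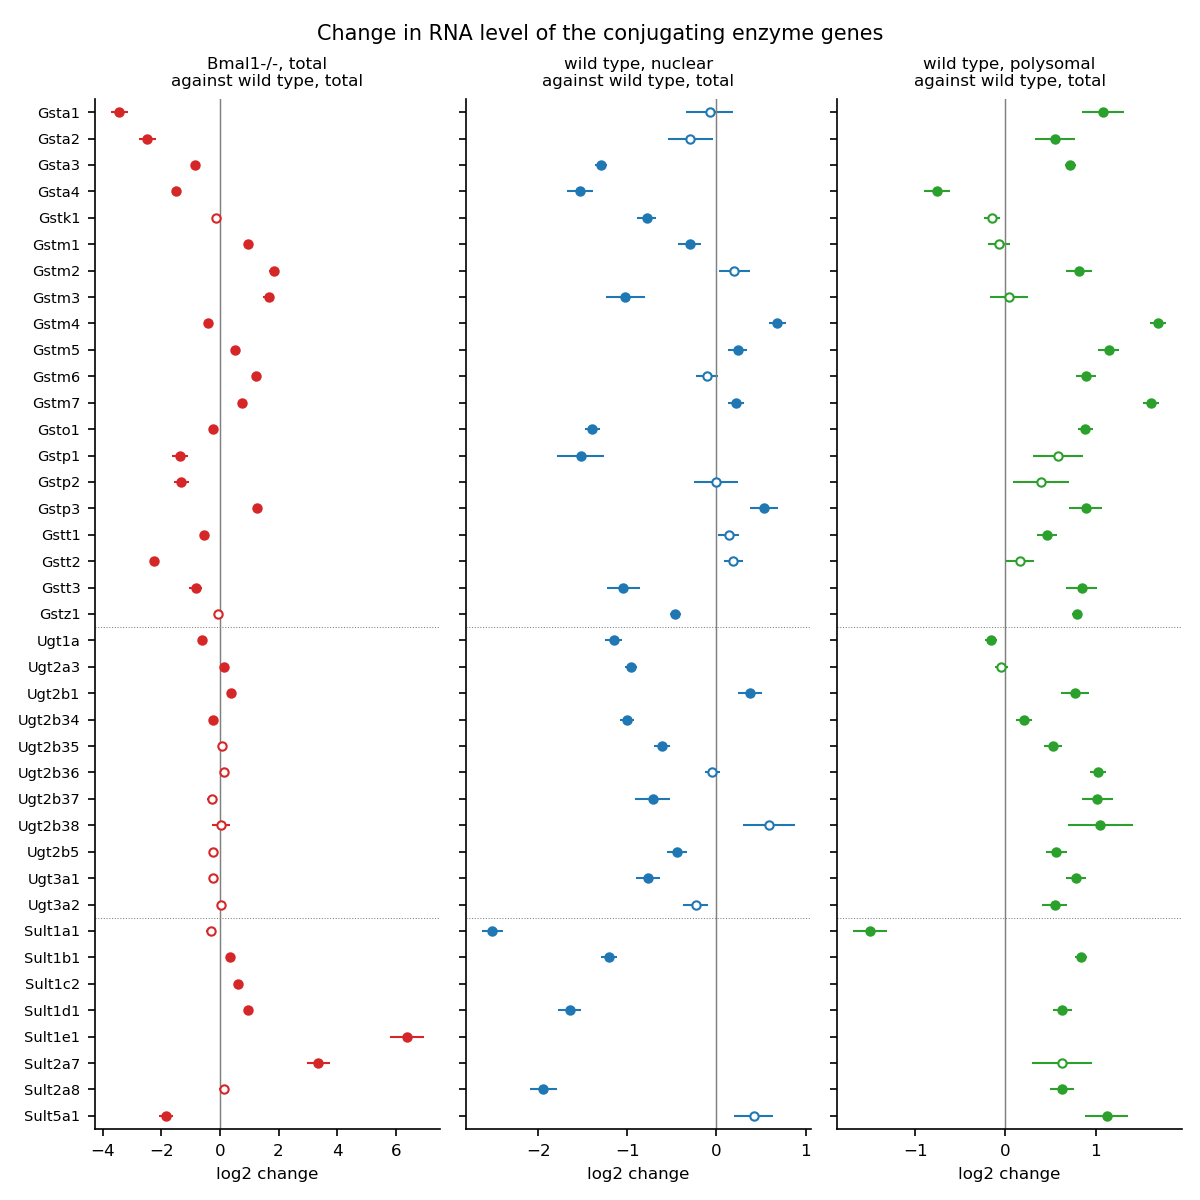
Log2 change of each separate member (points, with bars of 1 standard error) in Bmal1-/- against wild-type total RNA, and in nuclear and polysomal against total RNA of wild type, with Sult2a2 left out. Filled points passed an adjusted p of 0.05, and each panel has its own horizontal scale. In the Bmal1-/- panel Gsta1 lies furthest to the left, at -3.44, and Sult1e1 furthest to the right, at 6.38; in the polysomal panel most points lie to the right of 0.

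The 4 alpha class genes were all lower in Bmal1-/- liver, for Gsta1 as a description only. Promoters of 3 of them are shown because the pair with the largest falls, Gsta1 and Gsta2, are near copies and the abundant Gsta3 is not. Gsta4, Gsta1 and Gsta2 lie together on chromosome 9 (78191966 to 78347192), and Gsta3 lies apart on chromosome 1 (21240565 to 21265575), in RefSeq GRCm38.p6 coordinates. The RefSeq promoters, from 250 bases before to 50 bases after the annotated start, are printed 5′ to 3′ on the strand of the gene, for Gsta1 at chr9:78230419-78230718 (plus strand), Gsta2 at chr9:78347096-78347395 (minus strand) and Gsta3 at chr1:21240335-21240634 (plus strand). Capitals mark the antioxidant response element letters TGACNNNGC, the sequence bound by NRF2 with small MAF proteins, searched on both strands.
Gsta1: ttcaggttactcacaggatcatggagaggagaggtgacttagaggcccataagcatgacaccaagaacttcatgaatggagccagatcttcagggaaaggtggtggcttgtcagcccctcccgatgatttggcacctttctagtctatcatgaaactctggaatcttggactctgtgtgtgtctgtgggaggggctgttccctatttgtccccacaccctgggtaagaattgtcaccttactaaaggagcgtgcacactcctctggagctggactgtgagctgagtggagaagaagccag
Gsta2: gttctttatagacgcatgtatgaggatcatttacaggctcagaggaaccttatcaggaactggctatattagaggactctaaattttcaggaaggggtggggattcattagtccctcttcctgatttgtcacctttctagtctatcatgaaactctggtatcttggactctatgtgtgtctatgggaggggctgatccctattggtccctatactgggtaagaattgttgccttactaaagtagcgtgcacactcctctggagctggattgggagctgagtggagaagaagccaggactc
Gsta3: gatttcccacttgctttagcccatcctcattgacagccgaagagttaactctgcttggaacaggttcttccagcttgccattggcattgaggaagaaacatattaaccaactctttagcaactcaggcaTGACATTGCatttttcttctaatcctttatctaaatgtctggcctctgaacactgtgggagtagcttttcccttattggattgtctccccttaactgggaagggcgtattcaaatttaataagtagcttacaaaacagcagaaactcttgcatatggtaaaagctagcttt
The Gsta1 and Gsta2 promoters were identical at 238 of 316 aligned positions (75.3%), and those of Gsta1 and Gsta3 at 54.9%. Gsta3 held the element 121 bases before its start, and the other 2 windows did not hold these letters. Since the transcripts of Gsta1 and Gsta2 are also near copies, reads could have been shared between them, and their separate values are uncertain.

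Gsta1 had 0.752, 5.77 and 48.8 CPM as its lowest, median and highest value over the 36 wild-type libraries and 0, 0.663 and 3.75 CPM over the 36 Bmal1-/- libraries. The ranges overlapped, but 19 Bmal1-/- libraries lay below every wild-type library and 6 held no count. Its log2 change was -3.44 (SE 0.29, adjusted p = 1.26e-15), a 10.8-fold fall. Gsta1 was tested only because of its wild-type level, so its direction and p-value are a description only. Gsta2 went from 3.01, 11.0 and 132 CPM to 0, 2.81 and 13.3 CPM in the same order, with 21 Bmal1-/- libraries below all wild-type ones and a log2 change of -2.47 (SE 0.28, adjusted p = 3.75e-11). The highest wild-type value of Gsta2 came from replicate 4 at ZT2. Gsta4, which is known for clearing the lipid peroxidation product 4-hydroxynonenal, had 13.2, 35.3 and 117 CPM in wild-type and 4.45, 13.3 and 59.6 CPM in Bmal1-/- libraries and changed by -1.49 (SE 0.15, adjusted p = 1.17e-12). Gsta3, the abundant member, went from 908, 1203 and 1776 CPM to 305, 671 and 1385 CPM, and 26 of the 36 Bmal1-/- libraries were below the whole wild-type range. Its log2 change of -0.85 (SE 0.11, adjusted p = 5.82e-10) was smaller than that of its relatives, but the fall in CPM was larger, with medians of 1203 and 671. Its share of GST counts went from 30.9% to 13.9%, while the GST sum itself averaged 4001 CPM in wild-type and 5137 CPM in Bmal1-/- libraries.

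**Figure D2:**
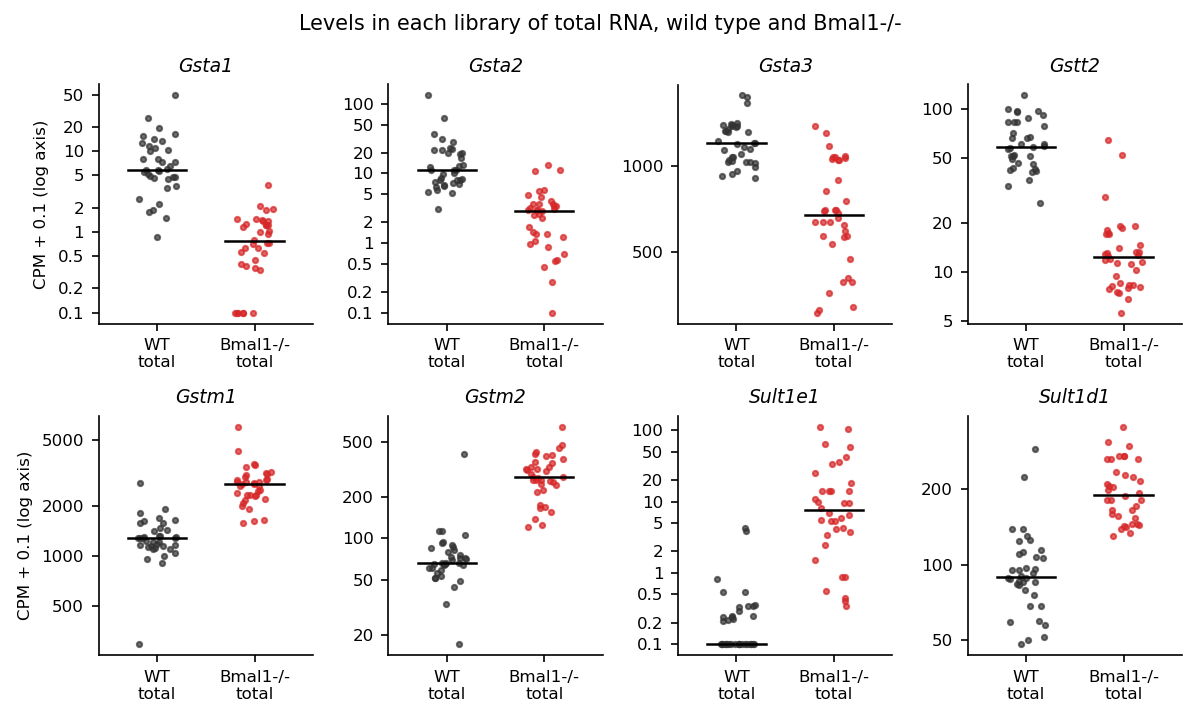
CPM plus 0.1 on a log axis for 8 members in the 36 wild-type and 36 Bmal1-/- total RNA libraries (points), with the median of each group as a bar. Gsta1, Gsta2, Gsta3 and Gstt2 sit lower in Bmal1-/- RNA and Gstm1, Gstm2, Sult1e1 and Sult1d1 higher, with overlap between the groups in every panel.

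The mu class genes lie in 1 cluster on chromosome 3 (107895854 to 108045179) in the order Gstm5, Gstm7, Gstm6, Gstm3, Gstm2, Gstm1, Gstm4, and the first 6 rose in Bmal1-/- liver while Gstm4, at the far end, fell. Gstm1 had 293, 1278 and 2764 CPM in wild-type and 1593, 2734 and 6044 CPM in Bmal1-/- libraries, of which 16 lay above every wild-type library. Its log2 change was 0.96 (SE 0.10, adjusted p = 2.26e-13), and its share of GST counts went from 32.6% ± 6.1 to 53.6% ± 4.2 (SD, n = 36 each). Gstm2 went from 17.1, 66.5 and 406 CPM to 122, 277 and 639.8 CPM, a log2 change of 1.83 (SE 0.14, adjusted p = 2.79e-17). A single wild-type library, replicate 4 at ZT14, reached 406 CPM for Gstm2, and it was also the highest for Gstm1, Gstm3, Gstm6 and Gstm7. Gstm3 had 10.4, 33.0 and 267 and 31.7, 128 and 597 CPM, with a log2 change of 1.66 (SE 0.20, adjusted p = 2.11e-10). Gstm6 changed by 1.23 (SE 0.11, adjusted p = 6.88e-15), Gstm7 by 0.76 (SE 0.07, adjusted p = 1.14e-15) and the low Gstm5 by 0.51 (SE 0.10, adjusted p = 1.33e-05). Gstm4 had 10.5, 30.6 and 49.5 CPM in wild-type and 11.6, 23.0 and 48.7 CPM in Bmal1-/- libraries, a log2 change of -0.42 (SE 0.09, adjusted p = 5.44e-05) in the other direction.

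Of the 7 mu class genes, 2 held the antioxidant response element letters in a RefSeq promoter window, and these are printed for that reason. No match was found for Gstm1, Gstm2, Gstm3 or Gstm6, which also rose. Gstm5 is at chr3:107895604-107895903 on the plus strand and Gstm7 at chr3:107931565-107931864 on the minus strand, with the element in capitals, 42 and 129 bases before the start. A second annotated start of Gstm7 had none.
Gstm5: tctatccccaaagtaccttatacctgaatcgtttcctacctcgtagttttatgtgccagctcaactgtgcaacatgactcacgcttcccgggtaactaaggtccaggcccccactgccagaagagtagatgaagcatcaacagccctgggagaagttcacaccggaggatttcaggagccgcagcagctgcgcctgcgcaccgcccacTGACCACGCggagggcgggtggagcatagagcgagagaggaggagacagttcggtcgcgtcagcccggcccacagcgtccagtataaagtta
Gstm7: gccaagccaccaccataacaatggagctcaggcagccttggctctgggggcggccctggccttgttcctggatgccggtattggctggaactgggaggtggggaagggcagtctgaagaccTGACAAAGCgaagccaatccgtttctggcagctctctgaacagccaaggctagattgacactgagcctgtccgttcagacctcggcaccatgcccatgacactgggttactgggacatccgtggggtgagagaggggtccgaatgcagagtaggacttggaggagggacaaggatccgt
Over the families, 66 promoter windows of 55 member symbols were found in RefSeq, and 3 members (Gsta3, Gstm5 and Gstm7) held TGACNNNGC. Of the 32851 mouse windows of the same length that were searched, which did not cover every chromosome, 12.4% held it. Of these 3 genes Gsta3 fell and the other 2 rose. The E-box CACGTG was in none of the member windows and in 7.15% of the windows searched. The REV-ERB and ROR core motif AGGTCA was in those of 12 members and in 16.3% of the windows searched. A match is a description of these letters in this window and not a bound site.

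Among the pi and theta class genes, Gstt2 had the lowest adjusted p-value of all members in Bmal1-/- liver. Gstt2 had 26.3, 58.6 and 122 CPM in wild-type and 5.49, 12.1 and 64.2 CPM in Bmal1-/- libraries, and 33 of the 36 Bmal1-/- libraries lay below the lowest wild-type one. The 2 highest Bmal1-/- values, 64.2 and 52.4 CPM, came from replicates 6 and 5 at ZT18, both among the libraries with little Cyp4a12a. Its log2 change was -2.24 (SE 0.15, adjusted p = 2.26e-20), a 4.74-fold fall. Its neighbours on chromosome 10, Gstt1 and Gstt3, also passed the test, at -0.53 (SE 0.12, adjusted p = 0.000196) and -0.83 (SE 0.23, adjusted p = 0.00205), but not in each set of 3 replicates: in replicates 1 to 3 their log2 changes were -1.17 and -1.92, and in replicates 4 to 6 they were 0.08 and -0.07. Gstp1, the pi class enzyme that predominates in male mouse liver, had 2.07, 76.8 and 281 and 6.36, 29.2 and 133 CPM and changed by -1.36 (SE 0.28, adjusted p = 4.4e-05), with -0.54 in replicates 1 to 3, where the test was not passed, and -2.08 in replicates 4 to 6. Its near copy Gstp2 changed by -1.31 (SE 0.25, adjusted p = 1.41e-05), with the same loss in replicates 1 to 3. Gstp2 was tested only because of its wild-type level, so its direction and p-value are a description only. Gstp3 rose by 1.28 (SE 0.14, adjusted p = 1.11e-11) from 0.376, 3.35 and 7.42 CPM to 1.83, 8.02 and 17.7 CPM.

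The remaining GST genes moved little. Gsto1, an omega class enzyme, fell by 0.22 on the log2 scale (SE 0.07, adjusted p = 0.00358), and not in replicates 1 to 3 alone. Gstz1, the maleylacetoacetate isomerase of tyrosine breakdown, had 245, 417 and 529 CPM in wild-type and 327, 424 and 500.1 CPM in Bmal1-/- libraries, and its log2 change of -0.07 did not pass the test (adjusted p = 0.189). Gstk1, the kappa class enzyme of mitochondria and peroxisomes, had a log2 change of -0.12 (adjusted p = 0.1).

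Of the UGT genes, Ugt1a changed most in Bmal1-/- liver. Ugt1a had 777, 1171 and 2003 CPM in wild-type and 378, 829 and 1704 CPM in Bmal1-/- libraries, and 17 Bmal1-/- libraries fell below every wild-type one. Its log2 change was -0.61 (SE 0.10, adjusted p = 2.89e-07), and its share of UGT counts went from 35.7% to 25.6%. Ugt2b1, whose role includes steroid and drug glucuronidation, had 279, 669.8 and 1187 and 143, 961 and 1846 CPM and a log2 change of 0.39 (SE 0.14, adjusted p = 0.0195). That rise was seen in replicates 1 to 3, at 0.86, and turned to -0.16 in replicates 4 to 6. The 3 lowest Bmal1-/- values of Ugt2b1, 143, 248 and 298 CPM, were those of the 3 libraries with Cyp4a12a below 10 CPM. Ugt2b34 changed by -0.24 and Ugt2a3 by 0.14, and neither passed in replicates 1 to 3 alone. The other 7 tested UGT genes did not pass, with log2 changes from -0.28 for Ugt2b37 to 0.13 for Ugt2b36, and Ugt2b37, Ugt2b38 and Ugt2b5 are close copies (promoter identity up to 87.3%) whose reads could have been shared.

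Of the SULT genes, Sult1e1 and Sult2a7 were low in wild-type liver and had the highest fitted rises. Sult1e1, the oestrogen sulfotransferase, was near absent from wild-type liver, with 0, 0 and 4.15 CPM as lowest, median and highest value and no count in 19 of 36 libraries. In Bmal1-/- liver it had 0.244, 7.43 and 112 CPM, every library held counts, and 25 of 36 lay above all wild-type libraries, of which the highest was replicate 5 at ZT18. Its means were 0.323 ± 0.911 and 18.2 ± 27.2 CPM (SD, n = 36 each). The fitted log2 change of 6.38 (SE 0.58, adjusted p = 3.24e-14) depends on the small count added to zeros in the fit, and Sult1e1 was tested only because of its Bmal1-/- level. In the 3 Bmal1-/- libraries with Cyp4a12a below 10 CPM Sult1e1 was at 42.0 to 112 CPM, and in the other 33 it had 0.244, 6.48 and 64.5 CPM; without those 3 and the libraries with Xist the log2 change was 6.03. Sult2a7, a hydroxysteroid class gene, went from 0, 1.22 and 6.21 CPM to 0.347, 9.06 and 282 CPM, with 22 libraries above all wild-type ones and a log2 change of 3.36 (SE 0.39, adjusted p = 9.69e-11). Its highest value, 282 CPM, was again a library with little Cyp4a12a, and without those libraries the change was 2.85.

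Sult1b1, Sult1d1 and Sult1e1 lie side by side on chromosome 5 (87513327 to 87591611), and all 3 were higher, for Sult1e1 as a description only. Sult1d1, which sulfates catecholamines, had 48.1, 89.1 and 287 CPM in wild-type and 129.9, 189.9 and 353 CPM in Bmal1-/- libraries. The ranges overlapped and 3 Bmal1-/- libraries exceeded the wild-type maximum, a library at ZT18 with little Cyp4a12a. Its log2 change was 0.96 (SE 0.10, adjusted p = 7.43e-13). Sult1b1, known for sulfating thyroid hormones, went from 22.3, 37.7 and 63.6 to 33.5, 52.6 and 74.8 CPM, a log2 change of 0.36 (SE 0.06, adjusted p = 1.28e-06). Sult1c2, at 0.503, 1.76 and 4.48 CPM in wild type, rose by 0.63 (adjusted p = 0.000847), with 0.12 in replicates 1 to 3, where it did not pass, and 0.94 in replicates 4 to 6. Sult5a1, whose substrate is not well known, was the 1 SULT gene that fell: it had 2.39, 13.4 and 35.9 and 0.347, 3.71 and 10.9 CPM and a log2 change of -1.85 (SE 0.24, adjusted p = 2.02e-09). The 2 most abundant SULT genes did not pass the test, with log2 changes of -0.30 (SE 0.16, adjusted p = 0.105) for Sult1a1 and 0.13 (SE 0.16, adjusted p = 0.548) for Sult2a8.

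None of the 39 tested members separated the 36 Bmal1-/- from the 36 wild-type libraries without overlap, which 0.0414% of all genes did upward and 0.0166% downward. Of the 28 calls, 19 were made in the same direction under all 12 other settings tried, and the 9 others are those named above as lost in replicates 1 to 3 or 4 to 6. Levels of the clock gene itself could not check the genotype, because the 3′ end read here may lie outside the removed part: Arntl, the table's symbol for Bmal1, averaged 6.73 ± 5.40 CPM in wild-type and 11.5 ± 2.98 CPM in Bmal1-/- libraries (SD, n = 36 each).

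Markers of sex and of other cells moved as well, and their counts stand beside 44.1% of all genes. Of 9 male-predominant liver genes 7 changed in Bmal1-/- RNA, 3 up and 4 down. Their summed level averaged 11361 ± 5100 CPM in wild-type libraries (range 952 to 23094) and 5994 ± 3633 CPM in Bmal1-/- ones (454 to 18399). The mean sums of wild-type and Bmal1-/- libraries were 8958 and 8060 CPM in replicates 1 to 3. In replicates 4 to 6 they were 13764 and 3929 CPM. Of 6 tested female-predominant genes 1 rose and 1 fell, with sums of 1.81 to 1165 and 2.06 to 493 CPM. Of 5 hepatocyte markers 2 rose and 2 fell (sums of 28703 to 88753 and 26261 to 114498 CPM), and 5 of 6 Kupffer cell markers fell (sums of 114 to 761 and 84.0 to 425 CPM). Of 5 cholangiocyte markers only Sox9 had the counts for a test, and it rose by 1.44 on the log2 scale (sums of 9.90 to 53.4 and 33.6 to 117 CPM), while Epcam, Krt19, Krt7 and Cftr averaged at most 0.771 CPM in either genotype and each was at 0 in at least 1 library of both. Of 5 red blood cell markers 4 fell (median log2 change -0.97; sums of 546 to 13134 and 27.7 to 5469 CPM), and 4 of 5 sinusoidal endothelial markers (sums of 100.4 to 169.6 and 105 to 183 CPM) and 4 of 5 stellate cell markers (sums of 192 to 356 and 261 to 436 CPM) changed, 2 up and 2 down in each list. Of the 2 tested genes of the adipocyte list Cfd fell, from 12.4 to 0.190 CPM on average, and Car3, which hepatocytes also express, did not pass. Of the exocrine pancreas list only Cela1 was tested, and it rose by 1.26 on the log2 scale, while Cpa1 was at 0 in both genotypes. The part of these genes in the members' changes was not tested.

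Rhythm over the day. In wild-type total RNA 8 of 39 tested members varied with a 24 h period (edgeR's test of a cosine and a sine, adjusted p under 0.05), against 18.9% of all genes, so that the members' share of 20.5% was near the background. The 8 were Gsta3 and Gstt2, Ugt2b35, and the SULT genes Sult1a1, Sult1b1, Sult1c2, Sult1d1 and Sult2a2. The Sult2a2 call rests on 1 library, the wild-type one with Xist, at 51.6 CPM. Without it Sult2a2 was too low for a test and 7 of 38 members passed, beside 2119 of all 11942 genes. Without wild-type replicate 5 at ZT18 and ZT22, 6 of 38 members passed, beside 2051 of all 11943 genes: the Sult1a1 ratio was then 1.44 (adjusted p = 0.0771). Without wild-type replicate 4 at ZT2 and ZT14, 12 of 39 passed, the added ones being Gstm4, Gstm7, Ugt2b34 and Ugt2a3. The count over all genes rose too, from 2260 of 11964 to 2679 of 11992.

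None of the 8 calls in wild-type total RNA was made under all 10 other settings. Sult1c2 and Sult1d1 were not called in replicates 4 to 6 alone, Gstt2, Ugt2b35 and Sult1a1 neither there nor with time as a factor, Sult1b1 neither in replicates 1 to 3 alone nor with time as a factor, Gsta3 in neither set of 3 replicates, and Sult2a2 not by DESeq2.

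Gstt2 peaked in late day. Its mean was 46.9 ± 10.4 CPM at ZT2, 87.6 ± 17.6 at ZT10 and 49.1 ± 10.5 at ZT22 (SD, n = 6 each), with a fitted peak at ZT12.4 and a ratio of peak to trough of 1.76, which passed the test at an adjusted p of 0.0111. The lowest ZT10 library, at 71.0 CPM, lay above the highest at ZT2 and at ZT22. In Bmal1-/- liver the Gstt2 means at the same times were 14.8 ± 7.94, 13.0 ± 3.53 and 12.0 ± 4.27 CPM.

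Sult1d1 was highest in the dark phase, at 133 ± 52.2 CPM at ZT14 and 139 ± 73.7 CPM at ZT18, against 78.4 ± 21.2 CPM at ZT2 and 78.7 ± 26.2 CPM at ZT22. Its fitted peak was at ZT16.0 with a ratio of 1.91 (adjusted p = 0.00405), and its ZT18 values ran from 92.8 to 287 CPM, the highest being replicate 5. In Bmal1-/- RNA the lowest and highest time means were 159 ± 23.5 CPM at ZT2 and 235 ± 68.4 CPM at ZT18, both above the wild-type means of those times.

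Gsta3 reached 1426 ± 275 CPM at ZT18 and was lowest at ZT6, at 1022 ± 50.1 CPM, with a ratio of 1.43 and a fitted peak at ZT20.7. Sult1a1 was at 77.3 ± 7.51 CPM at ZT10 and 129 ± 55.6 CPM at ZT22, with a ratio of 1.86 and a fitted peak at ZT20.04. Ugt2b35 and Sult1b1 peaked in the day instead: Ugt2b35 went from 90.7 ± 9.51 CPM at ZT6 to 56.1 ± 11.6 CPM at ZT18 (ratio 1.57), and Sult1b1 from 44.3 ± 2.4 CPM at ZT10 to 28.3 ± 5.18 CPM at ZT22 (ratio 1.37). Sult1c2, near 1.94 CPM on average, peaked at ZT8.16 with a ratio of 2.43. The adjusted p-values of these 5 genes were between 0.00273 and 0.0236.

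**Figure D3:**
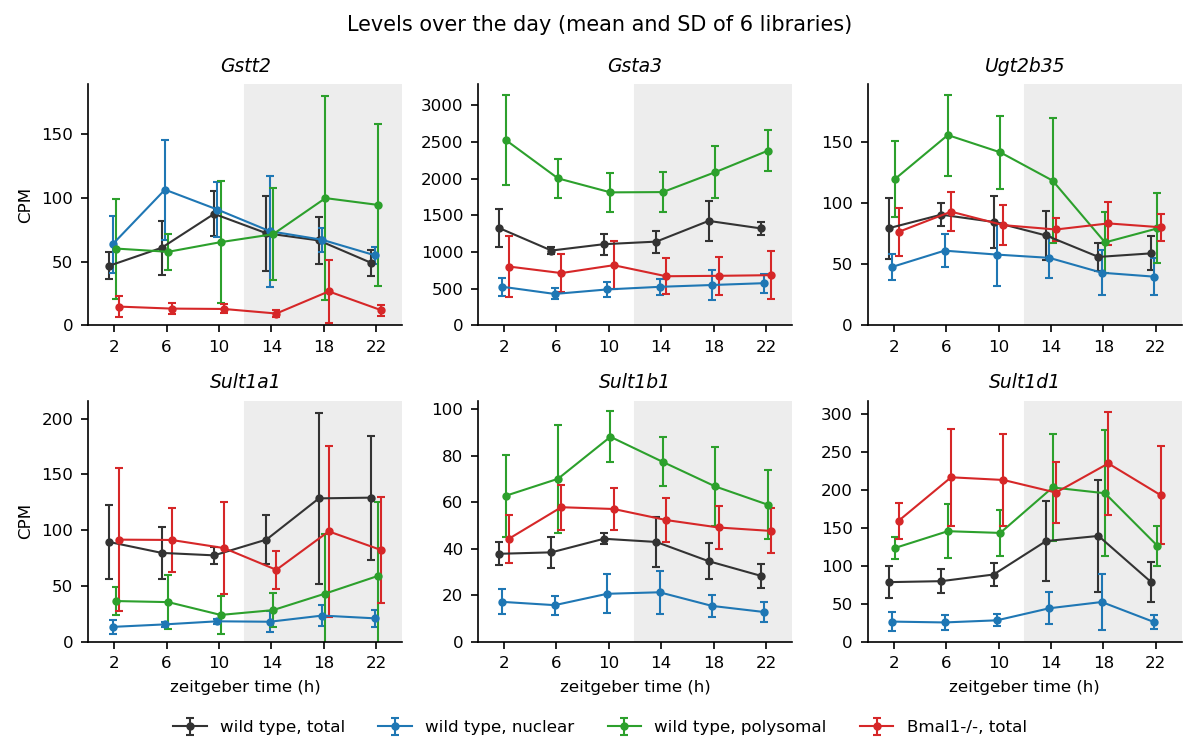
Mean CPM with SD of 6 libraries at each zeitgeber time (hours after lights on; dark phase shaded) for Gstt2, Gsta3, Ugt2b35, Sult1a1, Sult1b1 and Sult1d1 in wild-type total, nuclear and polysomal RNA and in Bmal1-/- total RNA. Wild-type Gstt2 is highest at ZT10, at 87.6 ± 17.6 CPM, and the Bmal1-/- line lies below it throughout; for Sult1d1 the Bmal1-/- line lies above the wild-type total line at all 6 times.

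The other RNA series gave fewer calls. In simulated data 200 genes had a 24 h rhythm and all others had none. With a ratio of 1.5 the test recovered 39 of 100 in wild-type total, 4 in nuclear, 1 in polysomal and 36 in Bmal1-/- RNA. Fewer calls in nuclear and polysomal RNA thus do not show that the members' rhythms were weaker there. In nuclear RNA 2 of 36 members passed (5.99% of all genes), Gstt2 with a ratio of 1.75 and Sult1d1 with 1.98 and a fitted peak at ZT16.1. Neither passed without nuclear replicate 5 at ZT18 and ZT22 (adjusted p = 0.0645 and 0.117), in replicates 1 to 3 alone or with time as a factor. In polysomal RNA 6 of 37 passed (7.90% of all genes): Ugt2b35 (ratio 2.00, peak ZT8.07), Sult1d1 (1.88, ZT15.4), Gstt3 (2.64, ZT19.1), Gstm4 (1.67, ZT14.6), Sult1b1 (1.5, ZT12.5) and Gsta3 (1.42, ZT22.2). Polysomal Gstt3 at ZT18 spread from 121 to 859.9 CPM, so that its peak has a wide error, and the Gstt3 and Sult1b1 calls were not made without polysomal replicate 1. None of the 6 polysomal calls was made in replicates 1 to 3 alone or with time as a factor. In Bmal1-/- RNA none of 37 members passed the edgeR test, with 0.00825% of all genes; 4 of them had an unadjusted p under 0.05, and DESeq2 made 0 calls, with 5 under 0.05.

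Passing in 1 series but not in another is no evidence of a difference, and the test of the difference itself found none among the members. For Bmal1-/- against wild type 0 of 39 members passed (5.18% of all genes), and 3 had an unadjusted p under 0.05 by edgeR: Gstt2 (adjusted p = 0.196), Sult1d1 (0.22) and Gstm3 (0.257). Without the libraries with Xist or with Cyp4a12a below 10 CPM Gstt2 passed (adjusted p = 0.0333). Between nuclear and total RNA 0 of 36 passed and between polysomal and total RNA 0 of 37, where no gene of the table passed, and the unadjusted p was under 0.05 for 1 and 3 members. In data simulated at this size, 200 genes had a rhythm in 1 genotype and all others had none. The test of a difference between Bmal1-/- and wild type then recovered 9 of 100 rhythms with a ratio of 1.5. With a ratio of 2 it recovered 47 of 100. In the real data 5.18% of all genes passed, so the adjusted threshold differed and these counts do not give the recovery for the members. Tried in the same way, the nuclear and polysomal tests of a difference recovered 1 and 2 of 100 with a ratio of 1.5. With a ratio of 2 they recovered 41 and 16 of 100. There no gene passed in the real data, so these counts do not give the members' recovery either. The lack of a call does not show that a member's rhythm was the same.

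Nuclear against total RNA. The 3 comparisons of levels share the 36 wild-type total libraries. The nuclear comparison asks how a member's RNA is divided between the nucleus and the whole cell, as shares of each library. Of 36 tested members 25 differed, against 83.8% of all genes. Of these 5 were higher in the nucleus (41.6% of all genes) and 20 lower (42.1%), and the median log2 difference was -0.46, against -0.01 over all genes. The lean to lower nuclear shares was seen in each family: 9 GST genes were lower and 4 higher (13 of 20 tested, median -0.20), 7 UGT genes lower and 1 higher (8 of 11, median -0.61), and 4 of 5 SULT genes lower and none higher (median -1.65). Counts are shares of each library, so these values do not give the number of molecules per nucleus. Markers of other cells differed between nuclear and total libraries too, read beside the same 83.8% of all genes. Of 5 sinusoidal endothelial markers 4 were lower and 1 higher (median log2 difference -1.17; sums of 100.4 to 169.6 CPM in total and 70.1 to 233 CPM in nuclear libraries). Stellate cell markers gave 3 higher and 2 lower of 5 (sums of 192 to 356 and 94.1 to 251 CPM), Kupffer cell markers 3 higher and 2 lower of 6 (114 to 761 and 113 to 698 CPM), hepatocyte markers 2 and 2 of 5 (28703 to 88753 and 24397 to 61380 CPM), and red blood cell markers 2 lower of 5 (546 to 13134 and 437 to 5686 CPM). The adipocyte list went from 1607 to 10388 to 443 to 2215 CPM, nearly all of it Car3, while Adipoq averaged 0.0377 and 0.0653 CPM. Their part in the members' differences was not tested.

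Sult1a1 was the most depleted. It had 8.16, 15.8 and 38.4 CPM in nuclear and 53.0, 91.7 and 284 CPM in total libraries, with no overlap between the 36 and 36 libraries, and a log2 difference of -2.52 (SE 0.12, adjusted p = 1.01e-30). Gsto1 (11.4, 29.6 and 45.6 CPM in nuclei, 47.1, 71.7 and 128 CPM in total RNA) and Gsta3 (331, 489 and 879 CPM in nuclei) also did not overlap with total RNA, at log2 differences of -1.39 (SE 0.08, adjusted p = 9.36e-26) and -1.30 (SE 0.07, adjusted p = 1.92e-27). Of all genes 4.91% were lower without overlap and 2.59% higher. Sult2a8 was at -1.94, Sult1d1 at -1.65, Gsta4 at -1.54, Gstp1 at -1.53, Sult1b1 at -1.21 and Ugt1a at -1.15, with adjusted p-values of at most 6.67e-07. The 5 higher members were Gstm4 at 0.68 (SE 0.10, adjusted p = 2.09e-09), Gstp3 at 0.54, Ugt2b1 at 0.37, Gstm5 at 0.24 and Gstm7 at 0.22. Of the 25 calls 20 were made under all 10 other settings, and those of Gstm1, Gstm5, Gstm7, Gstp3 and Ugt2b1 were not. Gsta1, Gsta2, Gstt1, Gstt2, Gstm2 and Gstm6 did not pass, with values from -0.30 to 0.20.

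The Ugt1a genes differ in their first exons, and counts beyond those shared by all 9 entries belong to 1 entry or to a few. On polysomes Ugt1a8 and Ugt1a10 held the same excess over the Ugt1a2 entry, 19.2 CPM, so that polysomal excess is not specific to an entry and is not given for the others. The Ugt1a1 entry, of the bilirubin enzyme, held 8.13 ± 3.06 CPM beyond the Ugt1a2 entry in wild-type total RNA, 40.0 ± 15.5 CPM in nuclear and 6.37 ± 2.89 CPM in Bmal1-/- RNA (SD, n = 36 each). The Ugt1a5 entry held 9.31 ± 5.58, 28.7 ± 11.6 and 4.37 ± 2.71 CPM in the same order. These small remainders were higher in nuclei while the shared counts were lower there, and they were not tested.

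Polysomal against total RNA. This comparison asks which members are over- or under-represented on polysomes relative to total RNA. Most were over-represented: 29 of 37 tested members differed (76.0% of all genes), 26 up (38.8% of all genes) and 3 down (37.2%), with a median log2 difference of 0.63 against 0.02 over all genes. With median-ratio scaling the split was 24 up and 5 down and the median of all genes moved to -0.07; when every gene with a count was kept it was 25 up and 6 down. In replicates 4 to 6 alone 18 of 38 members were higher and 6 lower (median 0.36), and in replicates 1 to 3 alone 25 were higher and 4 lower (median 0.79). Of all 11494 genes tested in replicates 4 to 6, 4070 were higher and 4271 lower. In replicates 1 to 3 it was 3707 and 3900 of 11560. Of the GST genes 13 were higher and 1 lower (14 of 20 tested, median 0.75), of the UGT genes 9 and 1 (10 of 11, median 0.56), and of the SULT genes 4 and 1 (5 of 6, median 0.63).

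Gstm4 differed most: it had 50.2, 93.0 and 172 CPM on polysomes and 10.5, 30.6 and 49.5 CPM in total RNA, with no overlap (2.26% of all genes were higher and 2.18% lower in that way) and a log2 difference of 1.69 (SE 0.09, adjusted p = 6.96e-27). Gstm7, of the same cluster, had 83.4, 153 and 256 CPM, with 33 of 36 polysomal libraries above all total ones, and 1.61 (SE 0.09, adjusted p = 6.81e-27). Gstm5 was at 1.14, Gstm6 at 0.89 and Gstm2 at 0.81, whereas the abundant Gstm1, at 587, 1249 and 2634 CPM on polysomes, did not pass (-0.07, adjusted p = 0.611), nor did Gstm3 (0.04). Gstz1 had 445, 732 and 1104 CPM on polysomes, above all total libraries in 35 of 36, with a log2 difference of 0.79 (SE 0.06, adjusted p = 2.58e-20). Gsta3 had 1420, 2046 and 3239 CPM and 0.72 (SE 0.06, adjusted p = 1.27e-17), and Ugt2b36 had 469, 834 and 1539 CPM and 1.03 (SE 0.09, adjusted p = 3.32e-17). Both were above all total libraries in most polysomal ones, 27 and 25 of 36.

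Sult1a1 differed most in the other direction. It had 8.92, 25.3 and 192 CPM on polysomes against 53.0, 91.7 and 284 CPM in total RNA, below every total library in 31 of 36, and a log2 difference of -1.5 (SE 0.19, adjusted p = 2.06e-10). Its 2 highest polysomal values, 192 and 151 CPM, came from replicate 1 at ZT22 and ZT18, and without replicate 1 the difference was -1.99. Sult1a1 thus made up 21.7% of SULT counts in total RNA, 12.9% in nuclei and 6.11% on polysomes, while Sult2a8 went from 43.8% to 51.4% on polysomes. Gsta4 was also lower, at -0.76 (SE 0.14, adjusted p = 3.09e-06), and Ugt1a slightly so, at -0.16 (SE 0.07, adjusted p = 0.0318), a call that was lost under 5 of 11 other settings.

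**Figure D4:**
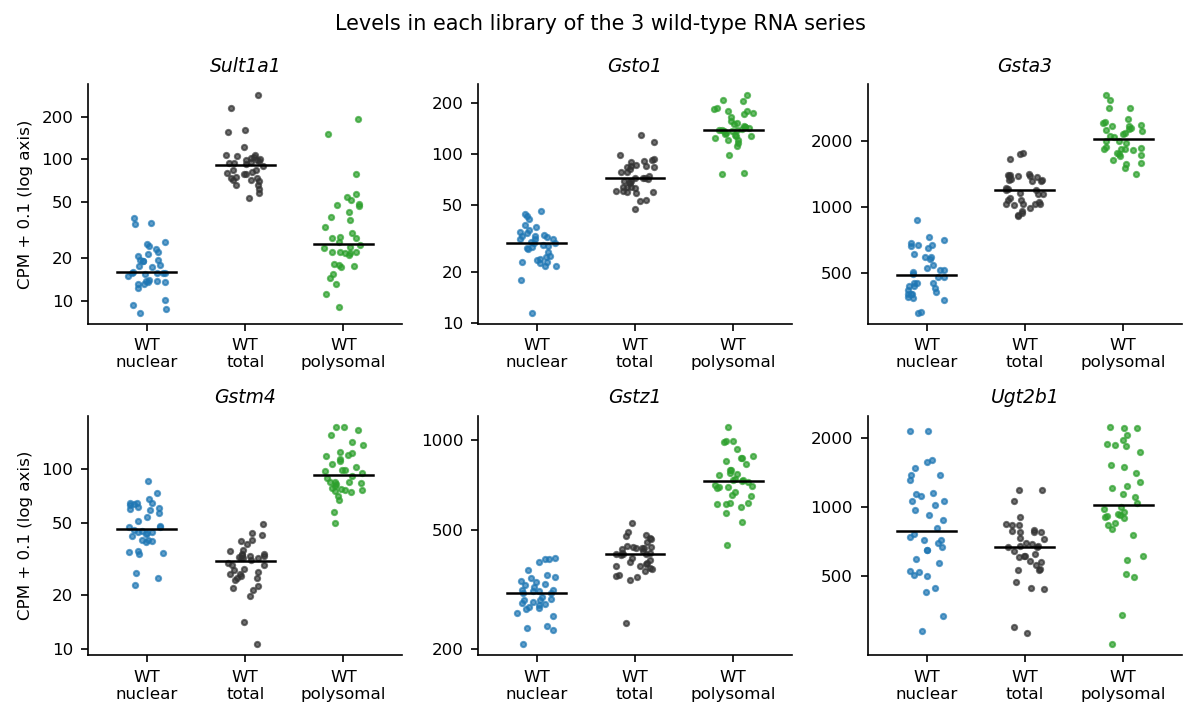
CPM plus 0.1 on a log axis for 6 members in the 36 nuclear, 36 total and 36 polysomal wild-type libraries (points), with the median of each group as a bar. Gsto1, Gsta3 and Gstz1 step up from nuclei to total RNA to polysomes, Gstm4 is lowest in total RNA, and Sult1a1 is highest in total RNA, with medians of 15.8, 91.7 and 25.3 CPM.

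Several polysomal values depended on the replicates. Of the 29 calls 15 were made in the same direction under all 11 other settings, and of the other 14 all but Ugt2b34, Gsta2, Ugt1a and Ugt2b38 were lost only when the replicates were divided into 1 to 3 and 4 to 6. Polysomal and total libraries of the same number did not deviate together (mean correlation -0.132 over 36 pairs), so a set of 3 numbers need not hold the same animals in both. Replicates 1 to 3 and 4 to 6 gave 2.60 and -0.33 for Sult5a1, 2.36 and -1.03 for Ugt2b38, 1.33 and 0.04 for Ugt2b1, 1.12 and -0.02 for Ugt2b5, and -0.09 and 0.97 for Gstt1. Polysomal libraries differed from total ones in other RNA too. Of 5 red blood cell markers 4 were higher, with sums of 546 to 13134 CPM in total and 2157 to 20820 CPM in polysomal libraries, and 3 of 5 hepatocyte markers differed, 1 up and 2 down, with sums of 28703 to 88753 and 14603 to 63023 CPM. Sinusoidal endothelial markers gave 1 higher and 4 lower of 5, Kupffer cell markers 2 and 3 of 6, and stellate cell markers 3 lower of 5, beside 76.0% of all genes. Markers of the club cells of the airway, which summed to at most 0.109 CPM in total RNA, reached 667 CPM in a polysomal library, and those of exocrine pancreas reached 1684 CPM. The mean polysomal sums in replicates 1 to 3 and 4 to 6 were 78.2 and 0.123 CPM for club cell markers. For pancreas markers they were 156 and 20.5 CPM. Their part in the members' differences was not tested.

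Use of polyadenylation sites. The site counts let the 3′ end of a member be split where it has more than 1 site with at least 5% of its counts. Of the authors' filtered sites, 77 lay in 33 members. Between Bmal1-/- and wild type 9 of 40 member sites in 5 of 16 genes changed in share (8.66% of all sites, 17.1% of genes). The tested sites include those of Sult1e1, which reached the count limit only through its Bmal1-/- level. None of them passed, and their log2 changes were 3.08, 1.79 and 1.61. Shares within 1 gene cannot all rise, so these values are not read as changes. Between nuclear and total RNA it was 28 of 37 sites in 13 of 15 genes (78.8% and 92.8%), and between polysomal and total RNA 34 of 39 sites in 15 of 16 genes (70.4% and 87.4%). Over the day 0 of 37 sites changed in wild-type total RNA by edgeR (0.364% of all sites, 0.896% of genes), and 2 had an unadjusted p under 0.05.

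Of the 37 member sites tested, 1 in Ugt2b1 had the highest log2 rise in share in nuclei and 1 in Sult1d1 the deepest fall. In Ugt2b1 a site 1030 bases before the gene end (mm10, chromosome 5, 86917596 to 86917742) took 16.5% ± 3.9 of Ugt2b1 counts in total RNA, with a range of 4.51% to 22.8%, and 64.9% ± 7.5 in nuclei, with a range of 49.0% to 84.6% (SD, n = 36 each). The ranges did not overlap, and the log2 change of the share was 1.98 (SE 0.07, adjusted p = 3.84e-34). How many of all sites separated in this way was not counted, and 78.8% of them changed in share. The site at 126 bases before the end took 82.9% in total RNA, 33.6% in nuclei and 72.9% on polysomes. The Bmal1-/- share of the upstream site, 17.8% ± 5.6, did not pass the test against wild type.

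Ugt2b1 was also the 1 member whose RefSeq promoter held a D-box, the sequence bound by DBP, TEF, HLF and NFIL3, and it is shown for that reason, at chr5:86926454-86926753 on the minus strand of GRCm38.p6. The letters searched on both strands were TTATGTAA and TTACGTAA, and capitals mark the match, the reverse complement of the former, 59 bases before the start. Of the mouse windows searched, 1.06% held one of them.
Ugt2b1: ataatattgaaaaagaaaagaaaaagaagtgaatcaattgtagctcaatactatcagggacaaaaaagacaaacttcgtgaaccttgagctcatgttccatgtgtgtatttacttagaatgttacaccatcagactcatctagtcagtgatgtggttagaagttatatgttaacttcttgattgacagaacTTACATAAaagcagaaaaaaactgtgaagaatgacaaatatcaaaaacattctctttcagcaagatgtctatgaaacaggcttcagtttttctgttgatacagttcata
The level of Ugt2b1 was not rhythmic by the test in wild-type total RNA (ratio 1.16, adjusted p = 0.752).

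Site shares within Sult5a1 differed on polysomes. The sites placed in Sult5a1 held 1.16 times the counts of its gene entry, so some of their reads were not counted for the gene. A site 11770 bases before the gene end (chromosome 8, 123154586 to 123154641) took 38.3% ± 13.0 of these site counts in total RNA and 39.7% in nuclei. Whether this site is an end of Sult5a1 RNA was not tested. On polysomes it took 3.80% ± 3.7, where the range of 0% to 14.3% lay below the total range of 19.4% to 69.6% (log2 change of the share -3.51, SE 0.18, adjusted p = 6.91e-26). The number of all sites that separated so was not counted, and 70.4% of them changed in share on polysomes. In Bmal1-/- RNA, where Sult5a1 as a whole fell, that site took 21.9% (log2 change -0.96, SE 0.16, adjusted p = 8.6e-06). Gstz1 used a site 511 bases before its end (chromosome 12, 87164052 to 87164372) for 27.1% ± 2.3 of counts in total RNA, 13.9% ± 2.7 in nuclei, 10.3% ± 2.6 on polysomes and 20.02% ± 3.8 in Bmal1-/- RNA. Gstz1 was thus a member whose level did not pass the test in Bmal1-/- liver while its site share did (log2 change -0.44, SE 0.05, adjusted p = 3.26e-10). For Sult1d1 the site 2363 bases before the end took 12.1% ± 3.0 in total RNA, 2.82% in nuclei, 2.89% on polysomes and 10.04% in Bmal1-/- RNA, with a log2 change of the share in nuclei of -2.13 (SE 0.19, adjusted p = 2.47e-16). For Ugt2b34 the site at 1330 bases took 17.4%, 5.03% and 5.60% in total, nuclear and polysomal RNA.

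**Figure D5:**
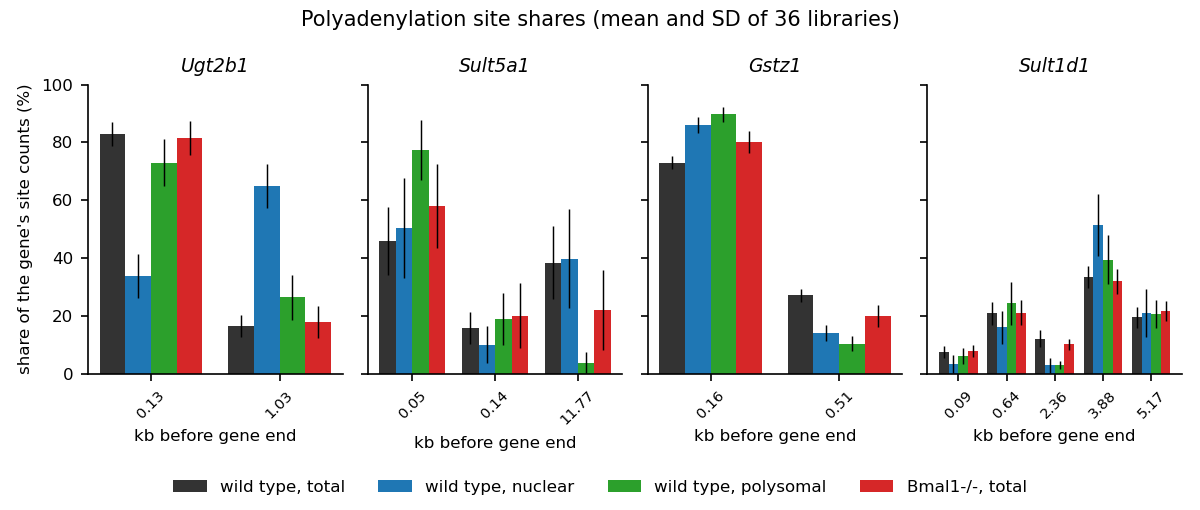
Mean share of each gene's counts (percent, bars, with SD of 36 libraries) at its polyadenylation sites, placed by distance before the gene end in kb, for Ugt2b1, Sult5a1, Gstz1 and Sult1d1 in the 4 series, with sites of at least 5% in some series. The upstream site of Ugt2b1 is tallest in nuclear RNA, at 64.9%, and the site of Sult5a1 furthest from the end nearly vanishes on polysomes, at 3.80%.

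Genes that serve or control conjugation. Among genes that supply or remove the cofactors, 8 of 12 tested changed in Bmal1-/- RNA, beside 44.1% of all genes, 2 up and 6 down. Papss1, which makes PAPS, rose by 1.08 on the log2 scale and Ugp2, which makes UDP-glucose, by 0.31, while Papss2, the other PAPS synthase, was at -0.45 and Ugdh, which makes UDP-glucuronic acid, at -0.42. Ugp2 and Gclc, the rate-limiting enzyme of glutathione synthesis, were the 2 rhythmic ones of 12 in wild-type total RNA, beside 18.9% of all genes. Their ratios were 1.70 and 2.15, and their rhythm differed from that in Bmal1-/- RNA (adjusted p = 0.000862 and 0.00958). Among other conjugating enzymes 8 of 12 changed, among them the methyltransferase Tpmt at 0.71, Nat8 at -5.38, As3mt at -1.65, Inmt at -1.5, Mgst3 at -0.93, Glyat at -0.43 and Mgst1 at -0.42. Of 17 regulators 12 changed, 3 up and 9 down, with Dbp at -1.75, Por, the reductase that serves P450 enzymes, at -0.87, Ppara at -0.38, Nr1i2, which encodes PXR, at -0.29 and Nfil3 at 0.44.

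The regulators include the clock output factors themselves. In wild-type total RNA 12 of 17 varied with a 24 h period (18.9% of all genes), among them Dbp with a ratio of 95.4 and a peak at ZT10.03, Tef with 5.79, Por with 4.54 and Nr1i3, which encodes CAR, with 2.15, and 7 of 17 differed in rhythm from Bmal1-/- RNA (5.18% of all genes), namely Hlf, Por, Ppara, Tef, Nr1i2, Nfil3 and Dbp. In Bmal1-/- RNA 0 of 16 tested regulators passed by edgeR. In nuclear against total RNA 11 of 12 cofactor genes differed (5 up, 6 down), 10 of 12 other conjugating enzymes (2 up, 8 down) and 12 of 17 regulators (5 up, 7 down), beside 83.8% of all genes. On polysomes the counts were 10 of 12 (7 up, 3 down), 10 of 12 (6 up, 4 down) and 12 of 17 (5 up, 7 down), beside 76.0% of all genes.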

How the data were processed

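The 3′ libraries were made with Lexogen QuantSeq kits, per the labels' protocols. The values used were the raw counts per gene and per polyadenylation site that the authors deposited, whole numbers with no scaling. Per the submitters' processing notes the tools include STAR 2.4.2a, HOMER and edgeR, and the builds GRCm38.p5 and mm10; how reads in shared exons were counted and whether strand was used is not given in the sources used here. The members and gene lists were chosen with earlier results of these data known.

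From the counts, CPM per library was computed, and edgeR 4.0.16 (R 4.3.3) was fitted to all genes that averaged 10 or more counts a library, with TMM scaling, 12 groups of series and time and robust quasi-likelihood tests. P-values were adjusted by Benjamini and Hochberg over all genes tested, with a threshold of 0.05. Rhythm was tested with a cosine and a sine of 24 h (2 degrees of freedom), and differences in rhythm as interactions. Site shares were tested with the gene's summed site counts plus 0.5 as offset, for sites of at least 5% in genes with at least 50 counts per library. Promoters are from RefSeq GRCm38.p6.

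Every member was eligible to be named, with full statistics for those that passed with the largest change and for the most abundant. The tests were tried on simulated data in which 200 genes or sites changed and all others did not. Of 100 genes changed 2-fold, 91 were recovered for Bmal1-/- against wild type. Of 100 genes given a 24 h rhythm with a ratio of 1.5, 39 were recovered in wild-type total RNA. Of 360 pairs of replicates none held identical values, and chi-square over its degrees of freedom was 4.03 or more. Other settings were median-ratio scaling, DESeq2 1.42.0, all genes with at least 1 count, replicates 1 to 3 or 4 to 6 alone, all 4 series in a fit, time as a factor and a replicate block. Settings that leave out the libraries with Xist above 100 CPM in all series, with Cyp4a12a below 10 CPM, wild-type replicate 4 at ZT2 and ZT14, wild-type and nuclear replicate 5 and polysomal replicate 1 at ZT18 and ZT22, or polysomal replicate 1 were chosen after seeing the data.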

Additional observations from a re-analysis of the deposited data

Results flagged for a closer look

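In groups of 6 replicates at 1 time, a library was taken to stand apart when its gap to the nearest other library exceeded Dixon's 95% critical share of the group's range, which chance gives in about 5% of groups. Members gave 127 such cases in 936 groups (13.6%), and all genes that averaged 10 or more counts gave 8.24%.

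Wild-type total replicate 4 at ZT2 had a summed UGT level of 6100 CPM, against 2836 to 3517 CPM in the other 5 replicates, and a summed SULT level of 927 CPM, against 340.5 to 427 CPM. In that library 10 of the 39 members that averaged 10 or more counts stood apart, beside 1526 of all 11849 such genes. The 10 members were Gsta4, Gstm2, Gstz1, Sult1a1, Sult2a8, Ugt1a, Ugt2b1, Ugt2b34, Ugt2b36 and Ugt3a2. Wild-type total replicate 4 at ZT14 had a summed SULT level of 701 CPM, against 423 to 515 CPM, with 7 members apart (Gstm2, Gstm3, Gstm6, Gstm7, Gstp3, Sult1b1 and Sult1e1). There 647 of all 11849 genes stood apart. Nuclear replicate 4 at ZT14 had a summed SULT level of 280.0 CPM, against 117 to 172 CPM, also with 7 members apart (Gstm2, Gstm3, Gstm6, Sult1b1, Sult1d1, Sult1e1 and Sult2a7). Both ZT14 libraries thus carried high Gstm2, Gstm3, Gstm6, Sult1b1 and Sult1e1.

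Bmal1-/- replicate 2 at ZT2 had a summed UGT level of 4220 CPM, against 2544 to 3122 CPM. Of the polysomal libraries, replicate 1 at ZT10 had 6 members apart (Gsta2, Gstm3, Gstp1, Gstp2, Gstt2 and Sult1a1) and replicate 1 at ZT22 had 5 (Gsta4, Gstp3, Gstt2, Sult1a1 and Sult1c2). At ZT22, 769 of all 11849 genes stood apart in that replicate. The pseudogene symbol Gstm2-ps1, which the choice of members leaves out, averaged 0.867 CPM in wild-type total RNA.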

How the results depend on the processing

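The counts of members called for levels stayed within 1.5 times of the values above under every setting tried, and those of the rhythm in Bmal1-/- RNA were 0. By direction they ranged from 13 to 17 up and 13 to 15 down in Bmal1-/-, 2 to 8 higher and 19 to 23 lower in nuclei, and 18 to 27 higher and 2 to 6 lower on polysomes. Wild-type rhythms depended more on the setting: 2 members were called with replicates 4 to 6 alone and 4 with time as a factor. Over all genes the counts were lower there too, at 621 of 11670 and 1411 of 11964, against 2260 of 11964. In nuclear RNA 5 were called with all genes of at least 1 count, 0 with replicates 1 to 3, 1 with replicates 4 to 6, 0 with time as a factor, 1 without the libraries with Xist and 0 without replicate 5 at ZT18 and ZT22. In polysomal RNA 0 were called with replicates 1 to 3 and 0 with time as a factor. Differences in rhythm were called for 2 members (Gstm4 and Sult2a5) between polysomal and total RNA with all genes of at least 1 count, and for 1 (Gstt2) between Bmal1-/- and wild type without the libraries with Xist or little Cyp4a12a. Bmal1-/- site usage gave 16 of 40 sites with replicates 4 to 6, beside 1312 of all 11004 sites. The cause was not tested. Log2 values changed sign in replicates 4 to 6 alone for Gstt1 (0.0788) and Ugt2b1 (-0.16) in Bmal1-/-, Gstm5 (-0.0204) in nuclear RNA, and Sult5a1 (-0.33), Ugt2b34 (-0.0517), Ugt2b35 (-0.0040), Ugt2b5 (-0.0202) and Ugt2b38 (-1.03) in polysomal RNA, and in replicates 1 to 3 alone for Gstt1 in polysomal RNA (-0.0882).

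Pairing by number was accepted only where every pair of libraries correlated over 0.1, which no series met, though nuclear libraries came near it: deviations of nuclear and total libraries of a number correlated at 0.347 on average (over 0.1 in 34 of 36 pairs, best with the own number in 32), those of polysomal at -0.132 (1 of 36, best in 0) and of Bmal1-/- at 0.0747 (18 of 36, best in 13). With the replicate block the calls were 30 (Bmal1-/-), 29 (nuclear, 8 higher and 21 lower) and 26 (polysomal) for levels, 8, 3, 9 and 0 for rhythms in wild-type total, nuclear, polysomal and Bmal1-/- RNA, 0 for each difference in rhythm, 11, 28 and 33 sites, and 2 for site usage over the day. Depth limits members under about 10 counts per library, of which 15 had no test.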
